A study of Canis lupus familiaris with 16 samples.

Results

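Interferon response genes are the genes that cells switch on when an interferon binds its receptor. The set described here was a list of 39 such genes, chosen by name with no threshold on a measured value, although earlier results of these data were known when it was drawn up. Of these, 38 had a row among the 41818 genes of the count table, and 33 could be tested, since 4 or more of the 16 tumors held 10 or more counts of them. IFIT1 was not analysed here. ISG15, ISG20, IFI6, IRF7 and XAF1 had too few counts to be tested, and their levels are given only as values.

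RNA was sequenced from formalin-fixed, paraffin-embedded (FFPE) soft tissue sarcomas of dogs, taken from a diagnostic archive, to compare gene expression between 3 tumor types. The groups used are the molecular identities of the labels, which are 4 fibrosarcomas (FS, dogs of 9 to 13 years), 6 peripheral nerve sheath tumors (PNST, 8 to 13 years) and 6 perivascular wall tumors (PWT, 2 to 14 years). By histology, S1-10 was a PWT and S2-08 an FS, and the study reassigned both from the expression of these same tumors. Samples were whole tumor sections with no normal tissue beside them, and labels carry no treatment. In bulk samples of this kind, fewer cells of a type and less RNA per cell cannot be told apart.

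Tumor names begin with S1 (9 tumors, each sequenced in 3 runs, summed here) or S2 (7 tumors, 1 run each), and the labels do not say what the prefix stands for. The prefix S1 was carried by 3 of the 4 FS, 5 of the 6 PNST and 1 of the 6 PWT. Totals on genes ranged from 507728 counts (S1-12) to 4311876 counts (S1-03). S1-04 and S1-05 have identical label entries and were counted as 2 tumors, although the sources do not say whether they came from 2 dogs. The cell type markers used here were chosen for this report and were not the study's criteria for the types. Of 8 Schwann cell markers, 3 had enough counts to be tested and none passed in PNST, while SOX10 was counted in all 16 tumors. The 10 pericyte and smooth muscle markers had a median log2 fold change of -0.99 in PWT against both other types, so these markers did not set PWT apart by higher levels, and CNN1, ACTA2 and MCAM of them were called higher in FS. Of 8 fibroblast markers, COL1A1, COL3A1 and LUM were called higher in FS, where 5.78% of all tested genes were. The list was mixed in FS. At an unadjusted p below 0.05, 4 of its markers were higher and 3 lower, against 13.9% and 11.5% of all tested genes. COL1A1 was called lower in PWT, where 0.714% of all tested genes were. No fibroblast marker was called for PWT under 15 of 25 alternatives, and none for FS under 2, without S1-11 and with groups by histology.

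In background, type I interferons signal through the receptor IFNAR1 and IFNAR2 and the kinases JAK1 and TYK2 to a complex that holds STAT2 and IRF9 and binds the promoters of the genes listed here. Interferon gamma has its own receptor and acts strongly on IRF1, IRF8 and the antigen processing genes. The products block viruses, sense foreign RNA, and cut and load peptides for MHC class I, and in tumors the same genes are known as a sign of inflammation or of nucleic acid in the cytosol.

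The levels of the interferon response genes set 3 tumors apart, and these were of 2 types. S1-02, an FS, and S2-03 and S2-04, both PWT, had high levels of nearly every member, while the other 13 tumors had lower summed levels. Summed over the 38 genes in the table, the level was 3172 CPM (counts scaled to a common library size with TMM factors) in S1-02, 2505 CPM in S2-03 and 2997 CPM in S2-04, and it lay between 426 and 875 CPM in the other 13. For each tumor, the difference of log2(CPM + 1) from the median of the 16 tumors was taken for every tested member, and the median over the 33 members is called the member median below. It was 2.15 in S2-04, 1.59 in S1-02 and 1.58 in S2-03, and the next tumors were S1-04 and S1-09, both at 0.18. The lowest was S2-11, a PWT, at -1.04, followed by S1-12, an FS, at -0.57. The median over all 15408 tested genes lay between -0.05 and 0.02 in every tumor.

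By type, the member median ran from -0.57 to 1.59 in FS with a median of -0.12, from -0.44 to 0.18 in PNST with a median of -0.06, and from -1.04 to 2.15 in PWT with a median of 0.11. The types overlapped, and PNST was the type with no tumor above 0.18. Within the prefix S1, S1-02 stood at 1.59 and the other 8 tumors lay from -0.57 to 0.18. Within S2, the PWT tumors S2-03 and S2-04 stood at 1.58 and 2.15, and the other 5 tumors lay from -1.04 to 0.12. The high tumors thus came from both prefixes.

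**Figure D1:**
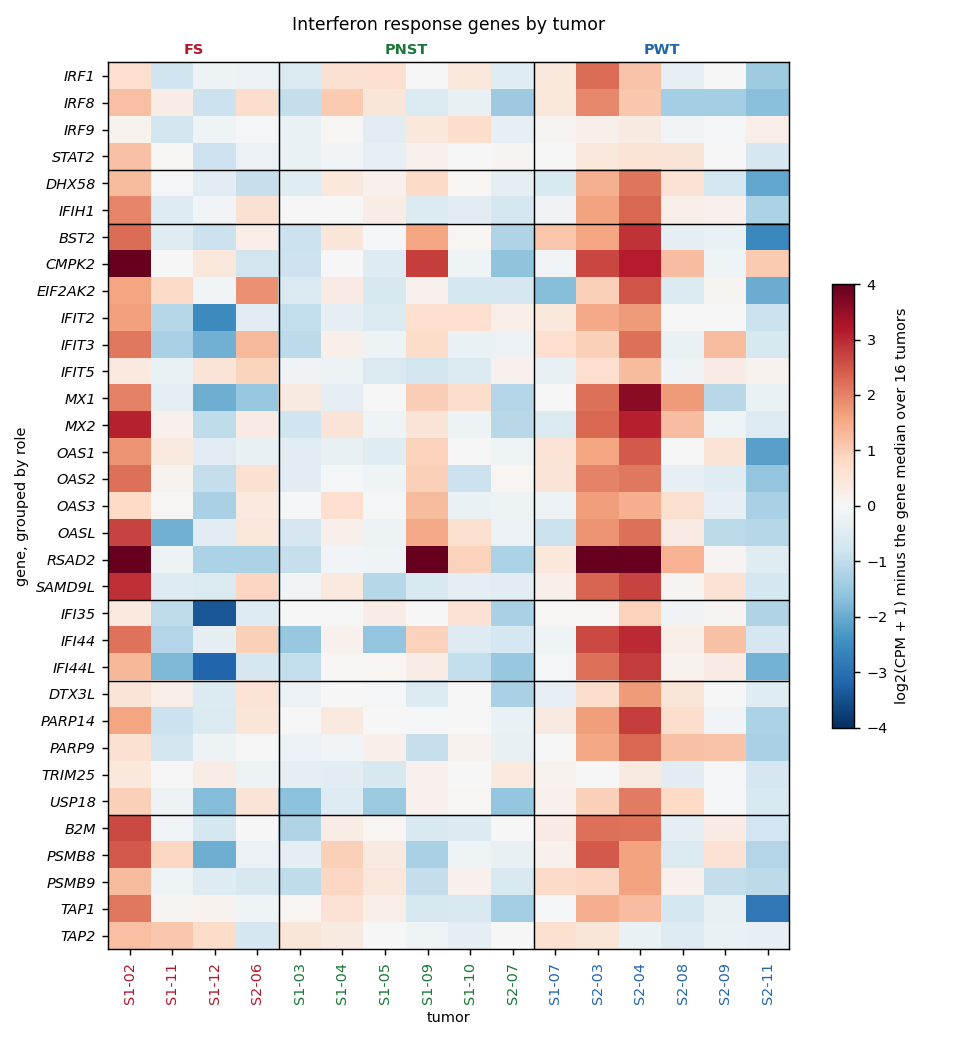
Level of each of the 33 tested interferon response genes (rows, grouped by role) in each of the 16 tumors (columns, grouped by type), as log2(CPM + 1) minus the gene's median over the 16 tumors, with the color scale ending at 4 in both directions. The columns of S1-02, S2-03 and S2-04 are red in nearly every row, and the column of S2-11 is mostly blue.

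S1-02 and S2-03 were above the median of the 16 tumors in 33 of 33 members and S2-04 in 32 of 33, while S2-11 was above it in 3. For 19 of the 33 members the 3 highest tumors were S1-02, S2-03 and S2-04, and the same was true of 142 of all 15408 tested genes, or 0.922%. These 3 tumors were picked from the levels of the members themselves, so the count describes the list and is not a test. For 31 of the 33 members at least 2 of the 3 were among the 3 highest tumors, and for 32 of 33 the highest tumor was one of them. S2-04 had the highest level in 18 members, S1-02 in 11 and S2-03 in 3. The exception was IRF9, whose highest level was in S1-10.

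The 14 tested antiviral effectors, whose products act against viruses directly, held the members with the widest spread over the 16 tumors, RSAD2 and CMPK2, and in 9 of the 14 S1-02, S2-03 and S2-04 were the 3 highest tumors. MX1 encodes a dynamin-like GTPase that traps viral particles. Its level in the 4 FS was 43.1 CPM in S1-02, 7.56 CPM in S1-11, 1.82 CPM in S1-12 and 2.81 CPM in S2-06. It ran from 3.87 to 20.8 CPM in PNST with a median of 11.5 CPM, and from 4.03 to 133 CPM in PWT with a median of 22.3 CPM. The highest PWT was S2-04, whose 97 reads give an interval of 108 to 162 CPM, followed by S2-03 at 49.7 CPM and S2-08 at 34.4 CPM, and the types overlapped. These intervals are exact Poisson intervals at 95% and cover counting error only.

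MX2, the neighbor of MX1 in the genome, stood at 46.6 CPM in S1-02, 27.1 CPM in S2-03 and 48.0 CPM in S2-04 and did not exceed 12.4 CPM elsewhere. RSAD2 encodes viperin, an enzyme that makes a chain-ending nucleotide from CTP, and had the widest spread of the members, with a standard deviation of 2.43 on the log2 scale. It was at 129 CPM in S1-02, and at 1.08, 0 and 0 CPM in the other FS. For counts of 0 the limit given is that of 3 counts, in place of the intervals above, and in S1-12, the tumor with the fewest reads, 3 counts are worth 5.45 CPM. RSAD2 was at 66.4 CPM in S2-03 and 65.9 CPM in S2-04, while the other PWT did not exceed 5.38 CPM. It was at 45.8 CPM in S1-09, a PNST, and at 3.57 CPM or less in the other PNST.

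CMPK2 encodes a mitochondrial nucleotide kinase and lies beside RSAD2 in the genome with 1 gene between them. Its level was 106 CPM in S1-02, 41.2 CPM in S2-04, 31.5 CPM in S1-09 and 29.4 CPM in S2-03, and 10.2 CPM or less in the other 12 tumors. It was at 3.78, 5.45 and 1.87 CPM in the FS S1-11, S1-12 and S2-06, ran from 0.552 to 31.5 CPM in PNST with a median of 2.76 CPM, and from 3.22 to 41.2 CPM in PWT with a median of 9.53 CPM. S1-09 was thus high in RSAD2 and CMPK2, and its median difference over the tested antiviral effectors was 0.94. Over the antigen processing genes it was -0.64, and over all tested members 0.18. SAMD9L, which slows growth and protein synthesis, was at 274 CPM in S1-02, 183 CPM in S2-03 and 237 CPM in S2-04, and between 15.5 and 66.0 CPM in the other 13 tumors. In the other FS it was at 24.9, 23.6 and 66.0 CPM in S1-11, S1-12 and S2-06. It ran from 15.5 to 46.8 CPM in PNST with a median of 26.9 CPM and from 21.4 to 237 CPM in PWT with a median of 47.4 CPM.

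The OAS enzymes make a short RNA-like messenger that activates RNase L. OAS1 was at 37.5 CPM in S1-02, 31.8 CPM in S2-03 and 60.4 CPM in S2-04 and at most 19.9 CPM elsewhere. OAS2 was at 73.2, 62.5 and 68.6 CPM in the same 3 tumors and at most 30.3 CPM elsewhere. OAS3 was less uniform, with 19.1 CPM in S1-02 and 26.8 CPM in S1-09, so that S1-09 and not S1-02 was among its 3 highest tumors. OASL, which aids RNA sensing, was at 24.0, 12.3 and 16.5 CPM in S1-02, S2-03 and S2-04 and at most 9.81 CPM elsewhere.

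The IFIT proteins bind foreign RNA ends. IFIT2 was at 17.3 CPM in S1-02, 15.5 CPM in S2-03 and 17.8 CPM in S2-04, against at most 8.32 CPM elsewhere. IFIT3 was at 15.5 CPM in S1-02 and 16.5 CPM in S2-04, but S2-03, at 6.37 CPM, lay below S2-06 and S2-09. IFIT5 varied less between tumors than most members did. It ran from 16.9 CPM in S1-09 to 71.4 CPM in S2-04, and in PNST from 16.9 to 32.6 CPM with a median of 22.2 CPM. It was at 38.5, 23.8, 41.8 and 54.8 CPM in S1-02, S1-11, S1-12 and S2-06, and ran from 23.6 to 71.4 CPM in PWT with a median of 34.0 CPM. BST2 encodes tetherin, which holds budding virus at the cell surface, and was at 110 CPM in S2-04, 68.9 CPM in S1-02, 43.8 CPM in S2-03 and 43.7 CPM in S1-09. EIF2AK2, which encodes PKR, a kinase that stops translation in the presence of double-stranded RNA, was highest in S2-04 at 38.4 CPM. Its level in the 4 FS was 19.8, 10.8, 5.45 and 23.4 CPM in S1-02, S1-11, S1-12 and S2-06, and S2-03 was at 12.3 CPM. It ran from 3.21 to 7.74 CPM in PNST with a median of 3.55 CPM and from 0.737 to 38.4 CPM in PWT with a median of 5.10 CPM.

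**Figure D2:**
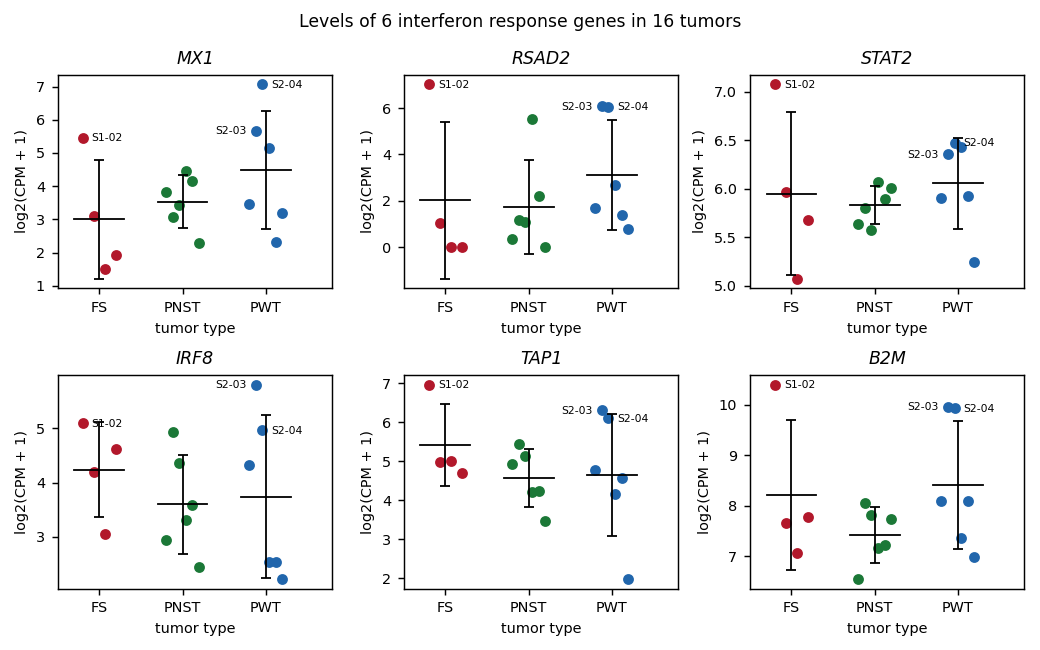
Level of 6 interferon response genes, as log2(CPM + 1), with 1 point per tumor for the 4 FS (red), 6 PNST (green) and 6 PWT (blue) and a bar for the mean and standard deviation of each type. S1-02 lies above the other FS in all 6 panels, S2-03 and S2-04 are the 2 highest PWT in 5 of them, and in STAT2 the PWT S2-08 lies between these 2.

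Both RNA sensors followed the same 3 tumors. IFIH1 encodes MDA5, which detects long double-stranded RNA, and was at 63.3 CPM in S1-02, 49.7 CPM in S2-03 and 81.0 CPM in S2-04, with at most 24.3 CPM in any other tumor. DHX58 encodes LGP2, which tunes MDA5, and was at 31.8, 35.4 and 59.0 CPM in these tumors, with at most 22.0 CPM elsewhere. The related sensor DDX58, which encodes RIG-I and was not among the 39 genes, was at 36.4, 28.2 and 39.8 CPM and at most 9.68 CPM elsewhere. It came from a list of 18 nucleic acid sensing genes, 17 of them tested. For 3 of the 17, DDX58, TLR3 and TLR8, these tumors were the 3 highest, against 0.922% of all tested genes. The median difference of that list from the gene medians was 1.035 in S1-02, 0.43 in S2-03 and 0.12 in S2-04, with 0.28 in S1-04.

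Of the induced proteins with less defined roles, IFI44 was at 58.7, 82.0 and 104 CPM in S1-02, S2-03 and S2-04, and at most 29.0 CPM elsewhere. Its neighbor IFI44L stood at 21.9 CPM in S1-02, and at 1.62, 0 and 4.68 CPM in S1-11, S1-12 and S2-06. In PNST, IFI44L ran from 2.21 to 10.1 CPM with a median of 6.00 CPM. It ran from 1.47 to 61.8 CPM in PWT with a median of 9.81 CPM, and its 2 highest PWT were S2-04 and S2-03, the latter at 41.0 CPM. IFI35, which binds the STAT-interacting protein NMI, did not separate the 3 tumors, with 13.1, 10.3 and 19.2 CPM in them and 15.0 CPM in S1-10.

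ISG15 encodes a small protein that is joined to other proteins like ubiquitin. It was at 12.7 CPM in S1-02 and at 0 CPM in the other 3 FS, ran from 0 to 4.16 CPM in PNST with a median of 1.53 CPM, and from 0.806 to 16.5 CPM in PWT with a median of 2.13 CPM. The highest PWT was S2-04, with 12 reads, and S2-03 had 7 reads or 2.79 CPM. USP18 removes ISG15 from proteins and also blocks the receptor IFNAR2. Its level was 17.0 CPM in S1-02, and 7.02, 1.82 and 12.2 CPM in S1-11, S1-12 and S2-06. It ran from 1.96 to 9.51 CPM in PNST with a median of 3.94 CPM and from 5.16 to 38.4 CPM in PWT with a median of 12.3 CPM, and S2-04 was the highest of all tumors.

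PARP9 and DTX3L form a complex that joins ubiquitin to histones, and PARP14 adds ADP-ribose to proteins. PARP9 was at 16.6, 5.94, 9.08 and 10.3 CPM in S1-02, S1-11, S1-12 and S2-06, and ran from 5.05 to 12.1 CPM in PNST with a median of 9.14 CPM. In PWT it ran from 3.68 to 54.9 CPM with a median of 24.5 CPM, with S2-04, S2-03, S2-08 and S2-09 above every tumor of the other types. PARP9 and DTX3L overlap in the reference annotation, and whether reads were counted by strand is not stated, so their counts may not be separate. PARP14 was at 59.0, 64.1 and 137 CPM in S1-02, S2-03 and S2-04 and at most 32.3 CPM elsewhere. TRIM25, which activates RIG-I through ubiquitin, was nearly level, from 49.4 to 105 CPM over the 16 tumors.

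Of the 4 tested transcription factors, IRF8 alone had S1-02, S2-03 and S2-04 as its 3 highest tumors. STAT2, a partner of IRF9, was at 134 CPM in S1-02, and at 61.6, 32.7 and 50.1 CPM in S1-11, S1-12 and S2-06. It ran from 46.6 to 66.3 CPM in PNST with a median of 56.7 CPM and from 36.8 to 87.9 CPM in PWT with a median of 70.2 CPM. S2-08, at 85.0 CPM, lay above S2-03 at 80.8 CPM. IRF9, the DNA-binding partner of STAT2, lay between 15.7 and 43.6 CPM with no tumor apart, and had the smallest standard deviation of the tested members, 0.35 on the log2 scale.

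IRF1 and IRF8 are the factors of the list that answer most to interferon gamma, and IRF8 is also a factor of macrophages, dendritic cells and B cells. IRF1 was at 122 CPM in S2-03, 57.7 CPM in S2-04 and 41.0 CPM in S1-02, with 41.4 CPM in S1-05. IRF8 was at 33.2, 17.3, 7.26 and 23.4 CPM in S1-02, S1-11, S1-12 and S2-06, and ran from 4.42 to 29.4 CPM in PNST with a median of 9.99 CPM. In PWT it ran from 3.68 to 54.9 CPM with a median of 12.0 CPM, with S2-03 highest and S2-04 next at 30.2 CPM. For both factors S2-03 was the highest tumor, whereas S2-04 was highest for most antiviral effectors.

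For B2M, TAP1 and PSMB8, 3 of the 5 antigen processing genes, the same tumors were the highest. B2M, the shared light chain of MHC class I molecules, was at 1351 CPM in S1-02 and at 199.9, 133 and 218 CPM in S1-11, S1-12 and S2-06. It ran from 93.0 to 264 CPM in PNST with a median of 181 CPM. In PWT it ran from 126 to 995 CPM with a median of 272 CPM, and was at 995 CPM in S2-03 and 973 CPM in S2-04 and at most 273 CPM in the other 4. B2M alone made up much of the summed level, and without it the sum was 1822 CPM in S1-02, 1510 CPM in S2-03 and 2024 CPM in S2-04.

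TAP1 and TAP2 form the pump that carries peptides into the endoplasmic reticulum. TAP1 was at 124 CPM in S1-02 and at 30.3, 30.9 and 24.8 CPM in S1-11, S1-12 and S2-06, ran from 9.94 to 42.4 CPM in PNST with a median of 23.6 CPM, and from 2.95 to 78.0 CPM in PWT with a median of 24.5 CPM. TAP2 did not have the same 3 highest tumors as TAP1. It was at 71.4, 65.4, 50.8 and 18.7 CPM in S1-02, S1-11, S1-12 and S2-06, ran from 22.9 to 42.3 CPM in PNST with a median of 30.2 CPM, and from 21.0 to 47.2 CPM in PWT with a median of 24.8 CPM. S2-03 was at 42.2 CPM and S2-04 at 24.7 CPM. PSMB8 and PSMB9 are catalytic subunits of the immunoproteasome. PSMB8 was at 20.5, 20.3 and 11.0 CPM in S1-02, S2-03 and S2-04 and at most 6.50 CPM elsewhere. PSMB9 was at 14.8, 4.86, 3.63 and 3.28 CPM in S1-02, S1-11, S1-12 and S2-06, ran from 2.24 to 10.8 CPM in PNST with a median of 4.87 CPM, and from 2.21 to 19.2 CPM in PWT with a median of 8.28 CPM. For PSMB9, the PNST S1-04 at 10.8 CPM was level with S2-03 at 10.7 CPM.

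The high level of S1-02 was seen in each of its 3 runs, in which the member median was 1.55, 1.64 and 1.67. RSAD2 was at 122, 121 and 143 CPM and B2M at 1419, 1257 and 1299 CPM in these runs. Across the 9 tumors with 3 runs, the member median of 1 tumor differed between its runs by 0.107 to 0.576, the latter in S1-12. S2-03 and S2-04 had 1 run each, so their runs could not be compared. Runs of a tumor are repeats of the same sample and do not measure the spread between tumors. S2-04 had the second lowest total, 726025 counts, and 3 counts in it are worth 4.12 CPM.

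Interferon response genes varied more between tumors than genes did in general. The median standard deviation of log2(CPM + 1) over the 16 tumors was 1.12 for the 33 members and 0.670 for all 15408 tested genes. TRIM25, IRF9, STAT2, IFIT5 and TAP2 were the least variable members, from 0.35 to 0.58. The members also moved together. The median Spearman's correlation over the 528 pairs of members was 0.56 over the 16 tumors, and 0 over all pairs of tested genes. Over the 13 tumors without S1-02, S2-03 and S2-04 it was 0.25 for the members and 0 for all genes, so that much of the likeness rested on these 3 tumors. All pairs share the same libraries and their depth, and the values are descriptions.

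BST2 and IFI44L had the highest median correlation to the other members, 0.69 each, followed by MX2 at 0.67 and USP18 at 0.66. TAP2 had the lowest, 0.02, followed by IFIT5 at 0.23. Members that are neighbors in the genome were alike in most cases. Spearman's correlation was 0.65 for MX1 and MX2, 0.74 for IFIT2 and IFIT3, 0.83 for OAS2 and OAS3, 0.73 for RSAD2 and CMPK2 and 0.75 for IFI44 and IFI44L. In the MHC region it was 0.73 for PSMB8 and TAP1 and 0.59 for TAP1 and TAP2, but 0.31 for the adjacent PSMB8 and TAP2.

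The 10 genes outside the list whose levels followed the member median most closely over the 16 tumors were LOC119864149 (correlation 0.91), LGALS9 (0.90), RNF213 (0.87), RTP4 (0.84), SPEF1 (0.84), LOC111093112 (0.83), LOC100684769 (0.79), LOC119864716 (0.79), GBP6 (0.79) and SIGLEC1 (0.78). RNF213, a large ubiquitin ligase, was at 569 CPM in S1-02, 471 CPM in S2-03 and 773 CPM in S2-04, and between 64.8 and 252 CPM elsewhere. RTP4 was at 40.3, 99.5 and 137 CPM in these tumors, and S1-04 at 51.7 CPM lay above S1-02. SIGLEC1, a receptor of macrophages, was at 70.0, 46.6 and 68.6 CPM, and S1-09 lay between them at 49.9 CPM.

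Each type was then compared with both other types pooled, the comparison of the study, with edgeR's quasi-likelihood test over 15408 genes. A gene was called at an adjusted p below 0.05 with an absolute log2 fold change above 1. None of the 33 members was called for FS, PNST or PWT. Over all genes 9.46% were called for FS (5.78% higher and 3.68% lower), 0% for PNST and 2.12% for PWT (1.41% higher and 0.714% lower). DESeq2's Wald test called 0 members for FS and PNST, and 1 member, PARP9, for PWT. Over all genes it called 2090 for FS, 291 for PNST and 875 for PWT.

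For FS, 1 member had an unadjusted p below 0.05, and it was higher in FS. Over all tested genes 25.4% had such a p, 13.9% with higher and 11.5% with lower levels in FS. The median log2 fold change of the members was 0.18 (0.00 over all genes), and 23 of 33 were above 0. This direction rested on S1-02, since without it the median was -0.72. The members with the smallest p were TAP2, with a log2 fold change of 0.72 ± 0.29 (SE, edgeR adjusted p = 0.119), EIF2AK2 with 1.12 ± 0.65 (adjusted p = 0.293) and CMPK2 with 1.43 ± 0.90 (adjusted p = 0.344). The log2 fold change of CMPK2 was -1.72 without S1-02. TAP2 passed the thresholds without S2-06 (1.01, edgeR adjusted p = 0.0185) and EIF2AK2 without S2-04 (1.64, edgeR adjusted p = 0.0411).

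For PNST, 10 members had an unadjusted p below 0.05, all lower in PNST. Over all tested genes 15.7% had such a p, 6.57% with higher and 9.1% with lower levels in PNST. The median log2 fold change of the members was -0.96 (-0.06 over all genes), and 2 of 33, IRF9 and IFI35, were above 0. SAMD9L had the smallest p, with a mean of 28.7 ± 10.5 CPM (SD, n = 6) in PNST and 96.4 ± 96.8 CPM (n = 10) in the other types, and a log2 fold change of -1.75 ± 0.59 (SE, edgeR adjusted p = 0.209). IFIT5 followed with -0.76 ± 0.26 (adjusted p = 0.214) and USP18 with -1.35 ± 0.51 (adjusted p = 0.239). B2M had a log2 fold change of -1.38 ± 0.55 (adjusted p = 0.261). The standard deviation of the other types was as large as their mean for SAMD9L, and they hold all 3 high tumors. Without S2-04, the median log2 fold change of the members was -0.63.

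For PWT, 5 members had an unadjusted p below 0.05, all higher in PWT. Over all tested genes 22.4% had such a p, 10.5% with higher and 11.8% with lower levels in PWT. The 5 members were PARP9, IFI44L, MX1, USP18 and PARP14. The median log2 fold change of the members was 0.55 (-0.08 over all genes), and 29 of 33 were above 0. PARP9 had a mean of 25.1 ± 17.9 CPM (SD, n = 6) in PWT and 9.74 ± 3.29 CPM (n = 10) in the other types, with a log2 fold change of 1.33 ± 0.39 (SE, edgeR adjusted p = 0.0686). IFI44L had a log2 fold change of 1.66 ± 0.66 (adjusted p = 0.146) and MX1 of 1.56 ± 0.66 (adjusted p = 0.169). The median log2 fold change of the members was 0.13 without S2-04, 0.32 without S2-03 and 0.96 without S1-02. The 3 comparisons share their tumors, so they are not independent of each other.

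The prefix was unevenly spread over the types. In a model that also held the prefix, the median log2 fold change of the members was 0.38 for FS, -0.86 for PNST and 0.67 for PWT. At an unadjusted p below 0.05 there were then 2, 4 and 0 members. The share of all tested genes is not given for this model, so these counts are description only. Within a prefix the comparisons could not be made for all types, since S2 holds 1 FS and 1 PNST and S1 holds 1 PWT.

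**Figure D3:**
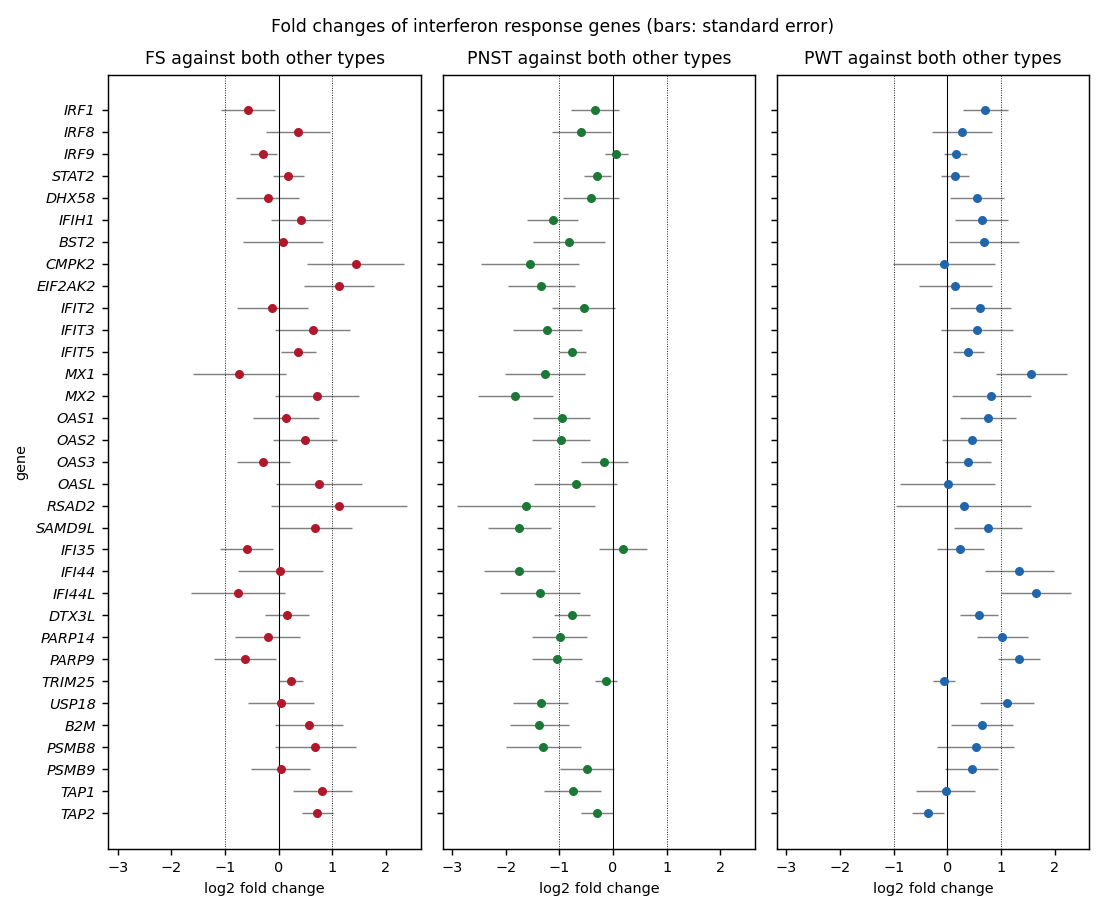
Log2 fold change of the 33 tested interferon response genes in each type against both other types pooled (points) with the standard error (bars), and dotted lines at -1 and 1. In PNST 31 of 33 points lie below 0 and in PWT 29 of 33 above it, and no gene passed the adjusted threshold in any panel.

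Of 6 interferon ligands listed, 5 had a row in the count table, and all of these but IFNK were hardly counted. IFNB1 had 0 reads in all 16 tumors, IFNG 1 read (in S2-03), IFNL1 4 reads and IFNE 10 reads over all tumors. IFNK, an interferon of keratinocytes, had 194 reads and was higher in PWT, with 11.5 ± 7.31 CPM (SD, n = 6) against 2.48 ± 1.38 CPM in FS (n = 4) and 4.38 ± 2.41 CPM in PNST (n = 6), a log2 fold change of 1.68 ± 0.42 (SE, edgeR adjusted p = 0.0426). Its level was 2.47 CPM in S1-02, 11.5 CPM in S2-03 and 6.86 CPM in S2-04, within the range of the other 13 tumors. It was highest in S2-11, at 25.8 CPM, the tumor with the lowest member median, -1.04.

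Among 11 interferon receptor and signaling genes, 1 was called, IFNAR1, which was higher in PWT (217 ± 67.4 CPM against 121 ± 21.5 CPM in FS and 97.8 ± 27.0 CPM in PNST, SD, n = 6, 4 and 6, log2 fold change 1.02 ± 0.23, edgeR adjusted p = 0.0309). Among 8 feedback inhibitors, 1 was called, the phosphatase gene PTPN2, also higher in PWT (1.06 ± 0.21, edgeR adjusted p = 0.0219). Of all tested genes, 1.41% were called higher for PWT. Neither IFNAR1 nor PTPN2 was high in S1-02, where IFNAR1 was at 109.6 CPM and PTPN2 at 18.4 CPM. These 3 calls depended on the setting, since IFNK was not called under 16 of 25 alternatives, IFNAR1 under 12 and PTPN2 under 6. None of the 3 was called without S2-04, without S2-11, with the prefix in the model or with groups by histology. IFNAR2, the other chain of the receptor, was at 22.6 CPM in S1-02, 19.5 CPM in S2-03 and 22.0 CPM in S2-04 and at most 16.3 CPM elsewhere.

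A list of 41 other interferon-induced genes held 24 that could be tested. For HERC5, HERC6, PARP12 and EPSTI1, S1-02, S2-03 and S2-04 were the 3 highest tumors. The median difference of the list from the gene medians was 0.71 in S1-02, 0.70 in S2-03 and 0.75 in S2-04. None was called for PNST or PWT, and ZC3HAV1, a sensor of CpG-rich RNA, and SP110, a nuclear body gene, were lower in FS, with log2 fold changes of -1.20 ± 0.26 (SE, edgeR adjusted p = 0.00557) and -1.23 ± 0.31 (adjusted p = 0.0166). In S1-02 these stood at 76.0 and 38.2 CPM, so the high FS was not high in them. Neither was called without S1-12 or with groups by histology. Of all tested genes, 3.68% were called lower for FS.

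Several genes of that list were highest in S2-03, and 4 of them are named here after their values were seen. GBP1, a guanylate-binding protein gene, was at 79.2 CPM in S2-03, 10.6 CPM in S1-02 and 8.24 CPM in S2-04. IDO1, which encodes a tryptophan-degrading enzyme, was at 58.9, 3.18 and 16.5 CPM, and the chemokine gene CXCL10 at 44.2, 4.59 and 1.37 CPM. CD274, which encodes PD-L1, was at 59.7 CPM in S2-03, 23.7 CPM in S1-02 and 5.49 CPM in S2-04, and at most 19.7 CPM elsewhere. These 4 genes are known to answer to interferon gamma, whose part in their levels was not tested. The 3 tumors, which were all high in the antiviral genes, differed in these 4 genes.

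They also differed in the 22 other antigen presentation genes, whose median difference from the gene medians was 1.86 in S1-02, 1.33 in S2-03 and 0.29 in S2-04. The MHC class II gene DLA-DRA was at 580, 520 and 178 CPM in S1-02, S2-03 and S2-04, and at most 189 CPM elsewhere. CD74, the class II invariant chain gene, was at 810, 462 and 225 CPM, and at most 279 CPM elsewhere. NLRC5, the activator of class I genes, was at 104, 100.3 and 53.5 CPM and at most 47.4 CPM elsewhere. MHC class I heavy chain genes are close copies of each other, so their counts are not read here. None of the 22 genes was called for any type.

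**Figure D4:**
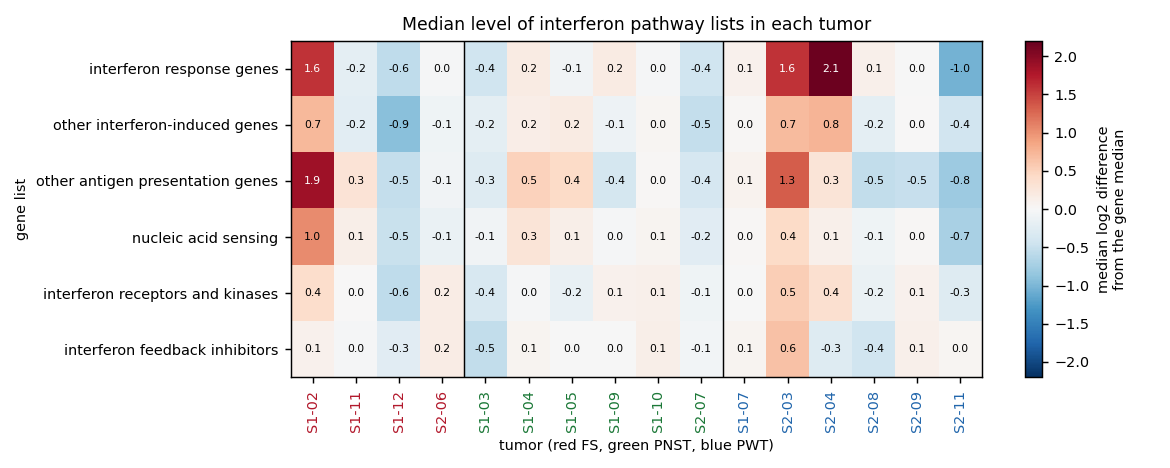
Median difference from the gene medians, on the log2(CPM + 1) scale, for the interferon response genes and 5 other lists of the pathway (rows) in each of the 16 tumors (columns). S1-02, S2-03 and S2-04 are high in the upper 2 rows, and for the other antigen presentation genes S2-04, at 0.29, is lower than S1-02 at 1.86 and S2-03 at 1.33.

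Markers of other cell types moved with the high tumors in part, and their part in the result was not tested. The 16 macrophage markers summed to 1881 CPM in S1-02 and 1149 CPM in S2-03, the 2 highest tumors, and to 776 CPM in S2-04, which lay below S1-11 at 846 CPM and S1-10 at 784 CPM. The sum ran from 245 to 1881 CPM in FS, from 327 to 784 CPM in PNST and from 286 to 1149 CPM in PWT. For PTPRC, CD163 and MSR1, 3 of the 16, the 3 tumors were the highest. Of the 16 markers, 4 were at 0 in S1-12 and 1 in S2-08, and none in the other tumors, high or not. C1QB was called higher in FS, at 78.7 ± 89.6 CPM (SD, n = 4), than in PNST at 29.3 ± 12.4 CPM (n = 6) and PWT at 27.3 ± 15.9 CPM (n = 6, edgeR adjusted p = 0.0488), a call lost under 15 of 25 alternatives, among them without S1-02. Of all tested genes, 5.78% were called higher for FS. Enough counts to be tested were held by 6 of 14 T and NK cell, 2 of 10 B and plasma cell, 4 of 8 dendritic cell and 1 of 6 neutrophil markers, and by all 8 endothelial and all 8 keratinocyte markers. None of those tested was called for any type by edgeR with the main settings, but some markers of these lists were under alternatives. With DESeq2, and with edgeR and no filter on low counts, both of which also took in genes of lower counts, 2 neutrophil and 1 B and plasma cell markers were called for FS, and 1 endothelial marker was called for FS with DESeq2 and without S1-09, and for PWT without S1-07.

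The 14 T and NK cell markers summed to 116 CPM in S1-02 and 109 CPM in S2-03, but to 32.9 CPM in S2-04, where 8 of the 14, CD3D, CD8A, CD4, LCK, GZMA, GZMB, PRF1 and KLRD1, were at 0. The sum ran from 19.5 to 116 CPM in FS, from 22.9 to 97.8 CPM in PNST and from 32.9 to 109 CPM in PWT. The 10 B and plasma cell markers were highest in S1-02 at 119 CPM, with 44.2 CPM in S2-03 and 28.8 CPM in S2-04. The 8 keratinocyte markers, genes of skin epithelium, summed to 1507 CPM in S1-02, 1149 CPM in S2-03 and 5.49 CPM in S2-04, with 6 of 8 at 0 in the latter. They were also high in S1-05 (1386 CPM), S1-04 (986 CPM) and S1-12 (897 CPM), whose member medians were -0.09, 0.18 and -0.57. With the main settings, S2-04 thus had the highest member median of the 16 tumors and the lowest keratinocyte sum. In it 8 of 14 T and NK cell markers were at 0, which in this library allows up to 4.12 CPM each. Its member median was not the highest under every alternative for levels, and ran from 1.24 to 2.12 against 1.34 to 1.75 in S2-03.

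**Figure D5:**
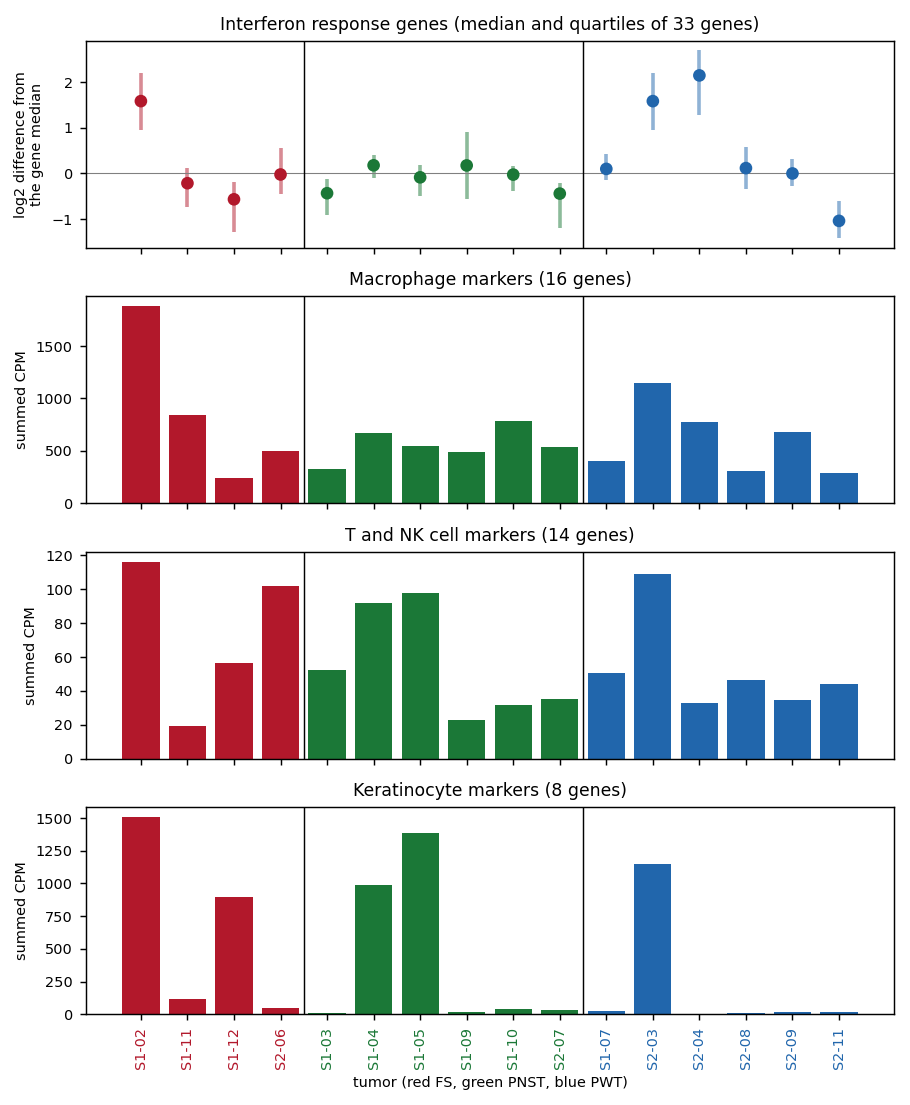
Member median with the quartiles over the 33 tested interferon response genes (upper panel, log2 scale) and the summed CPM of the macrophage, T and NK cell, and keratinocyte markers (bars) in each of the 16 tumors. S2-04 has the highest member median, 2.15, with 776 CPM of macrophage, 32.9 CPM of T and NK cell and 5.49 CPM of keratinocyte markers.

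By grade as the labels give it, S1-02 was of grade 1/2 and S2-03 and S2-04 of grade 1. Both grade 3 tumors were low or middling, with member medians of -0.02 in S2-06 and -1.04 in S2-11.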

How the data were processed

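The authors aligned reads of 16 FFPE tumors to ROS-canfam-01 with STAR2 and deposited raw counts per gene from htseq-count. Software versions and strand setting are not given in the sources used here. Runs of a tumor were summed (34 count columns). Counts on 41818 genes were scaled with TMM factors, and rows that name no gene were left out, so 22.9% to 30.6% of the listed reads per tumor remained. The 15408 genes with 10 or more counts in 4 or more tumors were tested with edgeR 4.0.16 (R 4.3.3, quasi-likelihood test) for each type against both others pooled, with Benjamini-Hochberg adjustment over all of them. DESeq2 1.42.0 was an alternative to edgeR. P-values measure the spread between tumors. The scripts were tested on simulated data.

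The members, the other lists and the cell type markers were chosen with earlier results of these data known. Every member was named or counted by role. Full statistics were given for the 3 members with the smallest p per comparison, with levels in each FS and the range and median of the 6 PNST and 6 PWT for these and for MX1, ISG15, IRF8, STAT2, PSMB9, TAP1 and B2M, and up to 4 called genes of the other lists. All 38 members in the table matched a symbol in RefSeq's UU_Cfam_GSD_1.0 annotation, used only for neighboring genes. Coordinates and sequences are not given, since no genome of the authors' build was used here. Some genes of these lists are not reported here. A count of 0 was read as allowing 3 counts, and floors cover counting error only.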

Additional observations from a re-analysis of the deposited data

Results flagged for a closer look

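In each type, the highest and lowest tumor was compared with the rest by Dixon's ratio, for the 33 tested members on log2(CPM + 1) and for the member median. Of 102 such groups, 5 held a tumor beyond the 95% limit, and chance alone gives about 1 in 20. The number flagged was thus close to that rate. The groups share tumors, so they are not independent, and the values below are descriptions. Among PNST, S1-09 stood apart in OAS1, with 19.9 CPM against 6.91 to 10.0 CPM in the other 5, and in CMPK2, with 31.5 CPM against 0.552 to 3.72 CPM. Among FS, S1-02 stood apart in RSAD2, with 129 CPM against 0 to 1.08 CPM in the other 3, and in TAP1, with 124 CPM against 24.8 to 30.9 CPM. Among PNST, S2-07 was low in IFI35, with 3.31 CPM against 9.51 to 15.0 CPM in the other 5.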

How the results depend on the processing

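The number of members called stayed at 0 for PNST under every alternative run. For PWT it was 1 with DESeq2 (PARP9, log2 fold change 1.32, adjusted p = 0.0265), and 0 when any tumor was left out. For FS it ran from 0 to 1 when each tumor was left out, with TAP2 called without S2-06 and EIF2AK2 without S2-04. The log2 fold change of CMPK2 in FS ran from -1.72 without S1-02 to 1.83 without S2-06. The median log2 fold change of the members ran from -0.72 to 0.45 for FS, from -1.10 to -0.63 for PNST and from 0.13 to 0.96 for PWT when each tumor was left out, and for FS it was 0.31 without S1-11, 0.34 without S1-12, 0.30 without S2-06 and 0.45 without S2-04. With only the 9 members that had a median of at least 50 counts, the member median was -0.13 in S1-03, -0.18 in S1-09, -0.34 in S1-10 and -0.016 in S2-07. Those of S1-02, S2-03 and S2-04 stayed at 1.18 or above under each of the alternatives for levels. That of S2-04 ran from 1.24 to 2.12 and that of S2-03 from 1.34 to 1.75, so S2-04 was not the highest tumor under each alternative.

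Over all genes, the number called for FS was 1457, 205 with groups by histology and 911 to 1583 with 1 tumor left out. For PNST it was 0, 291 with DESeq2, 170 with the 3-group model, 2 with no filter, 1 with a filter of 8 tumors and 0 to 3 with 1 tumor left out. For PWT it was 327, 875 with DESeq2, 859 with the 3-group model, 128 with no filter and 0 with the prefix term or groups by histology, and with 1 tumor left out it ran from 11 without S2-11, with 14 without S2-04, to 487. Members at an unadjusted p below 0.05 ran from 0 to 5 for FS, from 6 to 15 for PNST and from 1 to 11 for PWT with 1 tumor left out. With S1-04 and S1-05 as 1 tumor there were 3 for PWT. The shares of all tested genes at such a p are not given for these fits, so these counts are description only. No paired analysis was possible because the labels carry no replicate numbers. The cause of these changes was not tested. S1-12 and S2-04, with the lowest totals, set the limits for low levels.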
